A study of Mus musculus with 7 samples.

Results

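The 45 interferon-stimulated genes described here are mouse genes that type I or type II interferon is known to induce, given as a list of symbols by function. All 45 were found among the 24346 genes of the expression table. They were sorted by role into the IFIT family (3 genes), the OAS family (5), Mx and other antiviral effectors (13), ISG15 conjugation and TRIM ligases (4), nucleic acid sensors (5), transcription factors (4), GBP and IRG GTPases (8), and the group of Parp9, Dtx3l and Parp14 (3).

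Expression was measured by RNA-seq in hippocampal primary neurospheres, with 1 culture per mouse. These are floating spheres grown for 8 days from a single-cell suspension of dissociated hippocampal tissue, in medium for neural stem cells. The 3 Med23 CKO mice (KO_117, KO_214 and KO_218) were Nestin-CreER:Med23 flox/flox, and the 4 control mice (WT_215, WT_116, WT_213 and WT_220) are labelled wild type, while the study describes its controls as littermates without Med23 deletion, and the genotype of each is not given. Mice of both groups were of the C57/BL6 strain, 2 months of age, and tamoxifen, which activates the CreER recombinase, was given to both at 200 mg/kg per day on 5 days. The labels place this treatment at the age of 2 months, whereas the study's methods place it earlier for mice used in cultures. The study asked how loss of Med23, a subunit of the Mediator complex that links transcription factors to RNA polymerase II, alters gene expression in these cells. As the Nestin promoter drives CreER, the design deletes Med23 in cells that express Nestin and in their progeny, and is meant to spare other cells. The study states that Nestin-driven Cre also occurs in endothelial cells. How complete the deletion was in each cell type cannot be read from these libraries. The study used fewer control mice than the 4 deposited here and does not name them. All 7 libraries were included.

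Interferons are secreted by cells that sense foreign or misplaced nucleic acid. Type I interferon signals through Ifnar1, Ifnar2 and the kinases Jak1 and Tyk2 to Stat2 and Irf9, which act at a DNA element called the interferon-stimulated response element (ISRE), whereas type II interferon acts mainly through the gamma-activated site (GAS). In brain cultures both neural cells and microglia, the resident macrophages, can express these genes, and microglia do so strongly when activated.

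The DNA next to the start of these genes is shown first, because the ISRE and the GAS are the elements through which interferon is known to act on many of them. RefSeq promoter sequences on GRCm38.p6, from 250 bases before to 50 bases after each start, were found for 35 of the 45 genes. The ISRE was searched as GAAA, any 2 bases and GAAA again, and the GAS as TTCNNNGAA, on both strands, and a match to 1 of them can overlap a match to the other. An ISRE match was present in 20 of the 35 genes (57.1%), against 3.99% of all 27025 genes with a promoter sequence. A GAS match was present in 12 of the 35 (34.3%), against 9.55% of all genes. The windows of 30 bases printed here come from genes of several roles, the neighbours Igtp and Irgm2 among them, each on the strand of its gene, with the ISRE match, or its reverse complement, in capitals:
Isg15, chr4:156200871-156200900, reverse strand: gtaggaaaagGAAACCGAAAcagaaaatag
Oas1a, chr5:120907520-120907549, reverse strand: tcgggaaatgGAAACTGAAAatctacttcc
Bst2, chr8:71537577-71537606, reverse strand: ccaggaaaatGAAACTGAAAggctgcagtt
Ifitm3, chr7:141010706-141010735, reverse strand: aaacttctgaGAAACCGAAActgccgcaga
Ifit1, chr19:34640794-34640823, forward strand: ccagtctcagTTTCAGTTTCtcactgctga
Gbp2, chr3:142620594-142620623, forward strand: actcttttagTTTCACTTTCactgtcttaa
Igtp, chr11:58199512-58199541, forward strand: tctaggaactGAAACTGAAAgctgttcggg
Irgm2, chr11:58214903-58214932, forward strand: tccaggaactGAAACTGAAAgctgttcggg
The Isg15 match began 72 bases before the start of the gene and the Ifit1 match 85 bases before it. The match in Ifitm3 began 19 bases after the start and overlapped a GAS match. A match only describes the letters in these windows.

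Values are given as FPKM, a fragment count scaled by both transcript length and library size, so that levels can be compared between genes. Values of a gene are listed in a fixed order throughout: control mice WT_215, WT_116, WT_213 and WT_220, then Med23 CKO mice KO_117, KO_214 and KO_218. Between 16841 and 18113 genes had a value above 0 in a library, no 2 libraries were identical, and depth is unknown because no counts were used. Defining markers of neural stem cells were present in every library, with Nes between 61.1 and 241 FPKM and Sox2 between 69.4 and 194 FPKM. Med23 itself had 11.4, 10.3, 12.9 and 10.1 FPKM in control against 9.97, 9.27 and 8.12 FPKM in Med23 CKO. Each Med23 CKO value lay below each control value, which was the case for 1.53% of the 14151 genes tested, and the exact permutation p was 0.0571 (two-sided). FPKM is summed over the whole gene, so exons outside the floxed ones still count.

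The interferon-stimulated genes were at their highest in a single Med23 CKO library. The highest of the 7 values was that of mouse KO_214 for 43 of the 45 genes, and among the 39 that passed the filter on low values for 37 (94.9%), against 25.4% of all genes tested. For the same 37 it exceeded every control (94.9%, against 27.9% of all genes tested), and for 2 (5.13%, against 45.9%) it lay among the controls. Ifit1, Irgm2 and Zbp1 passed the filter only through KO_214, with means of 0.440, 0.476 and 0.311 FPKM without it. These 3 are counted in both shares of 94.9%, although the library counted is the one that let them pass. The ratio of the KO_214 value to the median of the other 6 libraries had a median of 5.38 over the 45 genes, between 0.841 for Ifit2 and 25.2 for Oas3, while its median over all genes tested was 1.02. It was at least 2 for 40 genes, at least 4 for 29 and at least 8 for 11, counts that were not taken over all genes tested. The KO_214 value was at least 2-fold above every control for 27 of the 39 (69.2%, against 6.97% of all genes tested). Ifit1, Irgm2 and Zbp1 are counted in this share too. The other 2 Med23 CKO mice did not exceed control for most of the genes. The KO_117 value was under the whole control range for 26 of the 45 genes and over it for 0. The KO_218 value lay within the control range for 27, above it for 12 and below it for 6. Among the 39 genes that passed the filter, these were 23 below control (59%, against 24% of all genes tested) and 16 within (41%, against 49.3%) in KO_117, and in KO_218 11 above control (28.2%, against 12.4%) 24 within (61.5%, against 55.8%) and 4 below (10.3%, against 31.8%).

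**Figure D1:**
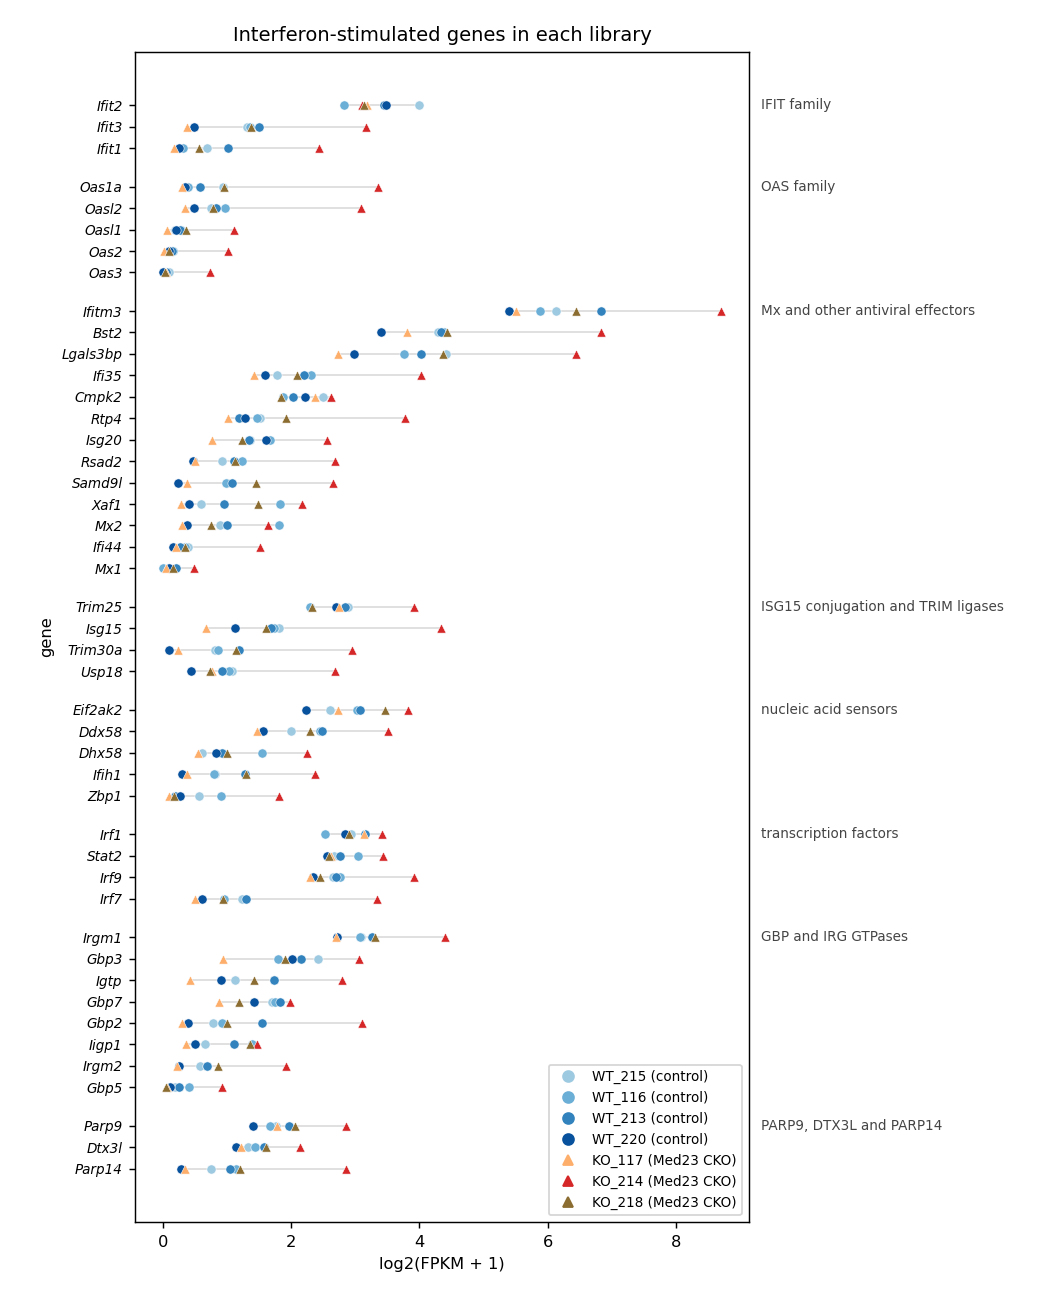
log2(FPKM + 1) of the 45 interferon-stimulated genes, 1 row per gene grouped by role and 1 point per library (circles control, triangles Med23 CKO, grey line the range of the 7 values). KO_214 is the rightmost point for 43 of the 45 genes, and the leftmost point is KO_117 or WT_220 for 39 of them.

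No interferon-stimulated gene differed between Med23 CKO and control beyond the spread between libraries. With limma on log2(FPKM + 1), 0 of the 39 genes tested passed an adjusted p under 0.05 as higher in Med23 CKO and 0 as lower, where the share over all genes tested was 0% in each direction, and the adjusted p of each was 0.9999. At an unadjusted p under 0.05, 0 were higher, against 0.502% of all genes tested, and 0 were lower, against 0.996%. By exact permutation over the 35 ways of dividing the 7 libraries into 3 and 4, whose smallest p is 0.0286, 0 of the 39 had a p under 0.05, against 1.26% of all genes. The groups overlapped for 45 of 45 genes. A complete separation with Med23 CKO above control was found for 0.784% of all genes tested. The 95% interval of the log2 difference contained 0 for 39 of 39 genes.

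The mean was nevertheless higher in Med23 CKO for 35 of the 39 genes tested (89.7%, against 43.8% of all genes tested) and for 41 of the 45. The 35 include Ifit1, Irgm2 and Zbp1, which passed the filter only through KO_214. The median log2 difference over the 45 genes was 0.39, against -0.03 over all genes tested. Without KO_214 it was -0.12 (against -0.06 over all genes tested), with 34 of the 45 below 0 and 11 above. Without KO_117 it was 0.78 (against -0.04), with 43 of the 45 above 0. Without KO_218 it was 0.52 (against 0.005), with 40 above. These counts with a library left out were not taken over all genes tested. The direction of the median therefore turned when KO_214 was left out and not when KO_117 or KO_218 was.

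**Figure D2:**
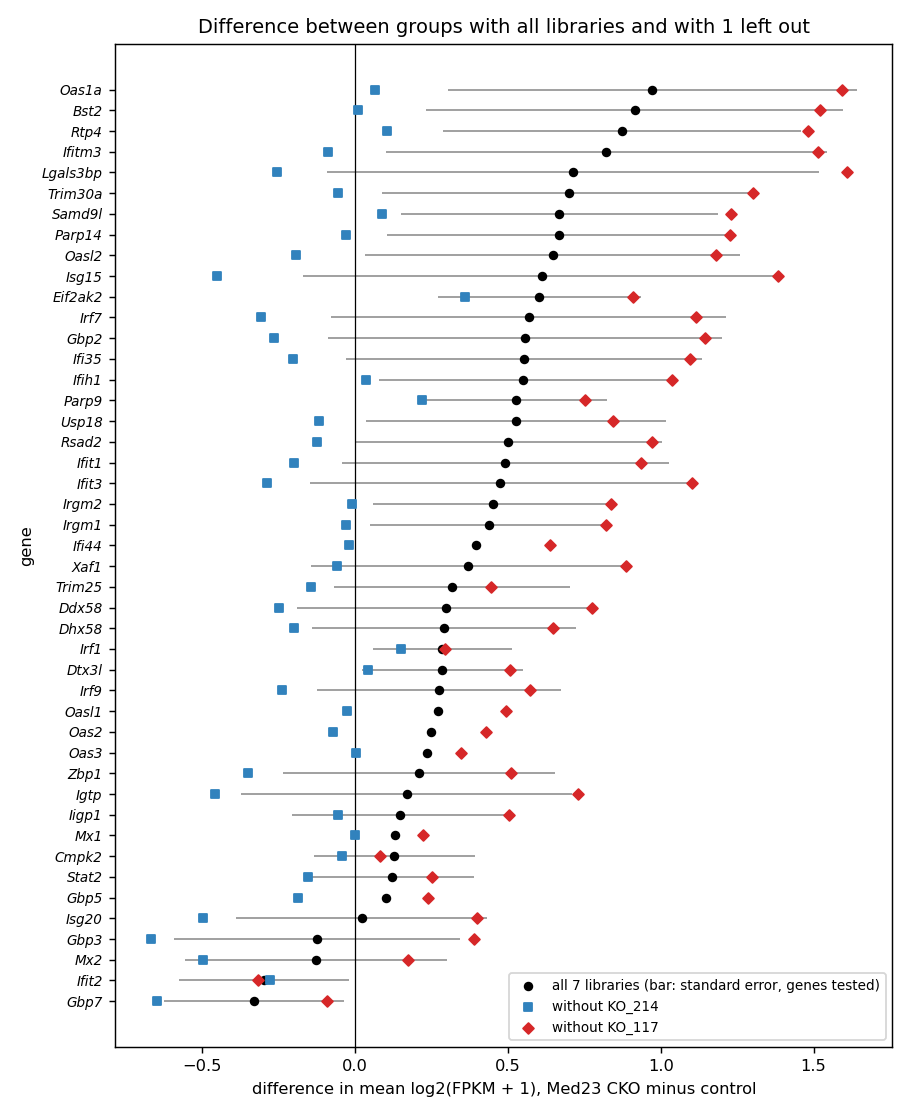
Difference in mean log2(FPKM + 1) between Med23 CKO and control for each of the 45 genes, with all 7 libraries (black circles, bar the standard error for the 39 genes tested), without KO_214 (blue squares) and without KO_117 (red diamonds). With all libraries 41 of 45 differences lie above 0, without KO_117 43 do, and without KO_214 34 lie below 0.

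The IFIT proteins bind viral RNA and block its translation, and Ifit2, Ifit3 and Ifit1 lie in 1 cluster on chromosome 19. Ifit1 had 0.616, 0.235, 1.01 and 0.186 FPKM in control against 0.123, 4.43 and 0.469 FPKM in Med23 CKO. Ifit3 had 1.49, 1.56, 1.83 and 0.392 FPKM in control against 0.301, 7.97 and 1.58 FPKM in Med23 CKO. Both were highest in KO_214 and lowest in KO_117. Ifit2 went another way, with 15.0, 6.09, 9.90 and 10.1 FPKM in control against 8.06, 7.55 and 7.80 FPKM in Med23 CKO. Its highest value was in control mouse WT_215, and its KO_214 value was 0.841 of the median of the other libraries, against 12.6 times for Ifit1 and 5.24 times for Ifit3. The log2 differences were 0.49 (SE 0.54) for Ifit1, 0.48 (SE 0.62) for Ifit3 and -0.30 (SE 0.28) for Ifit2, with exact permutation p-values of 0.600, 0.714 and 0.400.

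The active enzymes of the OAS family make a short adenylate chain that switches on RNase L, which cuts RNA. This family had the highest median ratio of the 8 roles, at low levels. All 5 genes were highest in KO_214 (against 25.4% of all genes tested), with a median ratio of 15.3, from 6.56 to 25.2. The ratios of Oas2 and Oas3 rest on values of at most 0.118 and 0.0628 FPKM in the other libraries. Oas1a had 0.905, 0.306, 0.483 and 0.267 FPKM in control against 0.221, 9.18 and 0.935 FPKM in Med23 CKO. Its KO_214 value was 10.1 times the highest control, its KO_218 value lay just above that control and its KO_117 value below every control. The log2 difference of 0.97 (SE 0.67, 95% interval -0.59 to 2.54, exact permutation p = 0.314) was the largest among the 39 genes tested. Oasl2 had 0.679, 0.955, 0.776 and 0.397 FPKM in control against 0.263, 7.49 and 0.724 FPKM in Med23 CKO. For Oasl2 only KO_214 lay above control, with a log2 difference of 0.65 (SE 0.61). Oas2, Oas3 and Oasl1 had a mean FPKM under 0.5 and were not tested; their KO_214 values were 1.02, 0.660 and 1.14 FPKM, and no other library exceeded 0.276 FPKM for any of the 3.

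Among the Mx and other antiviral effectors were the most abundant members. Ifitm3, which keeps enveloped viruses from fusing with endosomes, had 68.8, 57.8, 114 and 41.3 FPKM in control against 44.3, 416 and 86.1 FPKM in Med23 CKO. Bst2 (tetherin), which holds budding virions at the cell surface, had 18.5, 19.8, 19.2 and 9.60 FPKM in control against 12.96, 112 and 20.4 FPKM in Med23 CKO. Lgals3bp, a secreted glycoprotein that binds galectins, had 20.3, 12.6, 15.3 and 6.92 FPKM in control against 5.61, 86.3 and 19.6 FPKM in Med23 CKO. For each of these genes the KO_214 value was 3.66 to 5.67 times the highest control, and KO_117 stood with WT_220 at the low end. The log2 differences were 0.82 (SE 0.72) for Ifitm3, 0.91 (SE 0.68) for Bst2 and 0.71 (SE 0.80) for Lgals3bp, none beyond the spread (exact permutation p = 0.486, 0.314 and 0.514). Rtp4, a receptor-transporting protein, had 1.87, 1.76, 1.27 and 1.42 FPKM in control against 1.02, 12.7 and 2.76 FPKM in Med23 CKO. Both KO_214 and KO_218 lay above every control and KO_117 below, and the log2 difference was 0.87 (SE 0.59, exact permutation p = 0.229). Of the 13 genes in this role, 12 were highest in KO_214 (against 25.4% of all genes tested), with ratios from 1.54 to 7.96. The exception, named after its values were seen, was the GTPase gene Mx2, with its highest value of 2.50 FPKM in control mouse WT_116 and 2.10 FPKM in KO_214.

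Isg15 is a ubiquitin-like protein that is joined to other proteins, Usp18 removes it again, and the TRIM proteins include ubiquitin ligases that act in antiviral signaling. Isg15 had 2.49, 2.33, 2.22 and 1.18 FPKM in control against 0.584, 19.1 and 2.06 FPKM in Med23 CKO. Its KO_214 value was 7.67 times the highest control and its KO_117 value the lowest of the 7, and the log2 difference was 0.61 (SE 0.78, exact permutation p = 0.743). Trim30a had 0.744, 0.816, 1.26 and 0.0711 FPKM in control against 0.174, 6.72 and 1.19 FPKM in Med23 CKO. Its control values ranged widely, with WT_220 the lowest library, and the log2 difference was 0.70 (SE 0.61). Trim25, a ligase that activates the RNA sensor RIG-I, had 6.35, 3.90, 6.19 and 5.46 FPKM in control against 5.68, 14.1 and 4.02 FPKM in Med23 CKO. KO_117 and KO_218 lay within control for Trim25, and the log2 difference was 0.32 (SE 0.39). Usp18 had its highest value, 5.39 FPKM, in KO_214 and values from 0.353 to 1.11 FPKM in the other libraries.

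The nucleic acid sensors detect foreign RNA or DNA in the cell. Ifih1 (MDA5), a sensor of long double-stranded RNA, had 0.761, 0.739, 1.43 and 0.230 FPKM in control against 0.293, 4.17 and 1.46 FPKM in Med23 CKO. Eif2ak2 (PKR), a kinase that halts translation when it binds double-stranded RNA, had 5.10, 7.14, 7.43 and 3.71 FPKM in control against 5.62, 13.2 and 10.03 FPKM in Med23 CKO. For both, KO_214 and KO_218 lay above each control, by a narrow margin for KO_218 with Ifih1, and KO_117 lay within. The log2 difference was 0.55 (SE 0.47, exact permutation p = 0.343) for Ifih1 and 0.60 (SE 0.33, exact permutation p = 0.171) for Eif2ak2. Eif2ak2 had the largest log2 difference of the members without KO_214, at 0.36. Ddx58 (RIG-I), Dhx58 (LGP2) and Zbp1 were highest in KO_214 at 10.4, 3.73 and 2.49 FPKM, with KO_117 below every control.

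Of the transcription factors, Stat2 and Irf9 act together at the ISRE, Irf7 amplifies type I interferon production and Irf1 acts downstream of type II interferon. Irf7 had 1.35, 0.933, 1.44 and 0.531 FPKM in control against 0.410, 9.14 and 0.905 FPKM in Med23 CKO. Irf9 had 5.28, 5.78, 5.47 and 4.04 FPKM in control against 3.89, 14.1 and 4.47 FPKM in Med23 CKO. Only KO_214 lay above control for either gene, by 6.34 and 2.43 times the highest control. Stat2 had 5.35, 7.25, 5.79 and 4.91 FPKM in control against 5.14, 9.78 and 5.02 FPKM in Med23 CKO. Irf1 had 6.66, 4.77, 7.88 and 6.11 FPKM in control against 7.76, 9.66 and 6.43 FPKM in Med23 CKO. Both varied little beside Irf7, with ratios of KO_214 to the median of the others of 1.87 for Stat2 and 1.48 for Irf1, against 9.94 for Irf7. The log2 differences were 0.57 (SE 0.65) for Irf7, 0.27 (SE 0.40) for Irf9, 0.12 (SE 0.27) for Stat2 and 0.28 (SE 0.23) for Irf1.

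The GBP and IRG GTPases are induced mainly by type II interferon and attack the vacuoles of intracellular pathogens. All 8 were highest in KO_214 (against 25.4% of all genes tested), with ratios from 1.50 to 9.46. KO_117 lay below every control for each of them (against 24% of all genes tested). Among the 8, Gbp5 had a mean of 0.239 FPKM and was not tested. Gbp2 had 0.713, 0.898, 1.93 and 0.316 FPKM in control against 0.225, 7.62 and 1.003 FPKM in Med23 CKO. Irgm1 had 7.51, 7.41, 8.57 and 5.52 FPKM in control against 5.51, 20.1 and 8.87 FPKM in Med23 CKO. Irgm2 had 0.493, 0.608, 0.603 and 0.182 FPKM in control against 0.164, 2.78 and 0.804 FPKM in Med23 CKO. KO_218 stood just above the highest control for Irgm1 and Irgm2 and within the controls for Gbp2. The log2 differences were 0.56 (SE 0.65) for Gbp2, 0.44 (SE 0.39) for Irgm1 and 0.45 (SE 0.39) for Irgm2. Gbp7 and Gbp3, named after their values were seen, were the genes of this role with a lower mean log2 value in Med23 CKO, with log2 differences of -0.33 (SE 0.29) and -0.12 (SE 0.47). Their KO_117 values of 0.822 and 0.919 FPKM compare with control values from 1.66 to 2.53 FPKM and from 2.46 to 4.35 FPKM.

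Parp9 and Dtx3l form a complex that modifies histones and ubiquitin, and Parp14 is a related ADP-ribosyltransferase; their genes adjoin on chromosome 16. Parp9 had 2.40, 2.19, 2.89 and 1.66 FPKM in control against 2.44, 6.20 and 3.18 FPKM in Med23 CKO. Parp14 had 0.680, 1.20, 1.07 and 0.211 FPKM in control against 0.274, 6.24 and 1.29 FPKM in Med23 CKO. For both genes, as for Dtx3l, KO_214 and KO_218 lay above every control and KO_117 lay within them. The log2 difference of Parp9 was 0.53 (SE 0.30) and its exact permutation p of 0.114 was the lowest of the 39 genes, while that of Parp14 was 0.67 (SE 0.56, p = 0.343 by exact permutation).

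**Figure D3:**
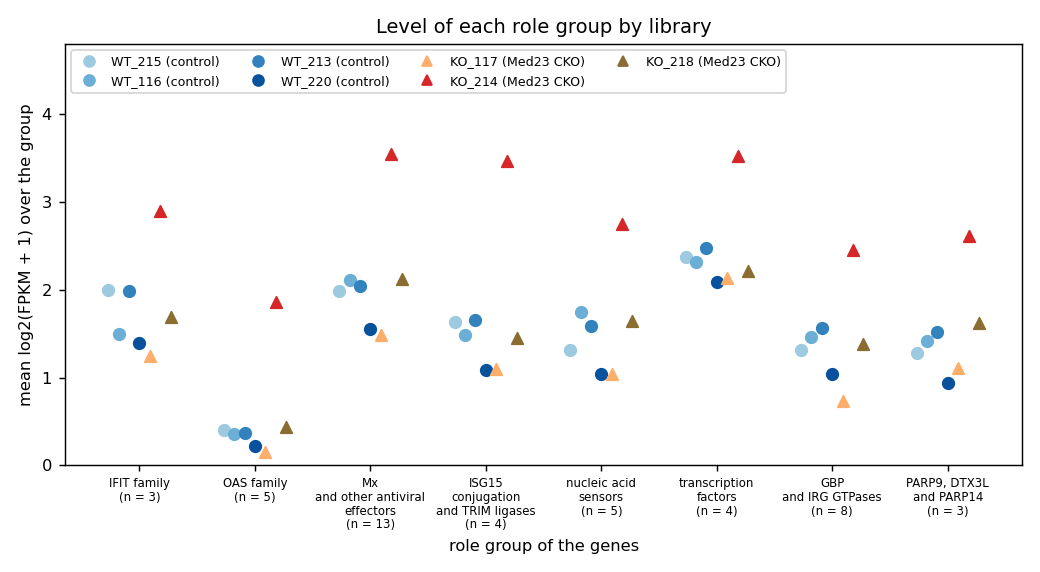
Mean log2(FPKM + 1) over the genes of each role, 1 point per library (circles control, triangles Med23 CKO), with the number of genes under each role. KO_214 is the highest library in all 8 roles, the OAS family is at the lowest level throughout, and KO_218 lies above the 4 control libraries in 3 roles by a small margin and within them in the others.

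Expression also varied among control mice in the same direction over many genes. The mean log2(FPKM + 1) over the 45 genes was 1.58, 1.64, 1.69 and 1.21 in control and 1.13, 2.96 and 1.64 in Med23 CKO. WT_220 and KO_117 were the 2 lowest libraries for 26 of the 45 genes, and for 25 of the 39 tested (64.1%), against 26.6% of all genes tested. The lowest value was that of KO_117 for 25 of the 45 genes and for 23 of the 39 tested (59%, against 20.6% of all genes tested), and that of WT_220 for 14 of the 45 and for 12 of the 39 (30.8%, against 21.5%). Without KO_117, limma placed 12 of the 39 genes under an unadjusted p of 0.05 as higher (30.8%, against 2.5% of all genes tested) and 0 as lower (against 2.9%), and 0 under an adjusted p of 0.05. These were Oas1a, Rtp4, Bst2, Samd9l, Lgals3bp, Trim30a, Ifih1, Eif2ak2, Irgm1, Irgm2, Parp9 and Parp14. Of these, Irgm2 passed the filter on low values only through KO_214. Without KO_214, 0 were higher, against 0.551% of all genes tested, and 1, Gbp7, was lower, against 1.45%. Without KO_218, 0 were higher, against 0.982%. With each of the 4 control libraries left out in turn 0 passed in either direction, against 0.318% to 0.473% of all genes as higher and 0.537% to 1.43% as lower. With all libraries and quantile normalization 1 gene, Parp9, was higher (2.56%, against 0.721%), and with array weights 1, Eif2ak2, was higher (2.56%, against 1.36%) and 1, Gbp7, lower (2.56%, against 6.27%). At an adjusted p, 0 of the 39 passed in each of these fits, and the share of all genes called higher was 0.00707% without KO_214 and 0.00707% without KO_218.

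Markers of microglia and macrophages moved with the same libraries. Of 22 such genes, 20 were highest in KO_214, where the share over all genes tested was 25.4%. Their KO_214 values had a median ratio of 8.87 to the median of the other libraries. On the log2(FPKM + 1) scale they averaged 2.53, 3.26, 3.68 and 1.83 in control against 1.88, 5.47 and 3.31 in Med23 CKO. Their summed FPKM ranged from 115 to 682 in control and was 132 in KO_117, 4417 in KO_214 and 548 in KO_218. WT_220 and KO_117 were thus the lowest libraries for both gene lists and KO_214 the highest. None of the 22 markers was at 0 in any library. The 2 not highest in KO_214 were Cx3cr1 and P2ry12, receptors of resting microglia. They had 0.157 and 1.24 FPKM in KO_214 against 0.0866 to 0.783 and 0.434 to 1.60 FPKM in control. Tmem119 and P2ry13, also markers of resting microglia, were highest in KO_214. Their values there were 4.04 and 0.288 FPKM, against 0.0269 to 0.414 and 0.0176 to 0.249 FPKM in control. As bulk RNA was measured, more cells of a type and more RNA per cell cannot be told apart. The 12 endothelial markers also moved with these libraries. Of them, 10 were highest in KO_214, with a median ratio of 5.80 to the median of the other libraries. WT_220 and KO_117 were the 2 lowest libraries for 9 of the 12, against 26.6% of all genes tested. Their mean log2(FPKM + 1) was 0.96 to 2.62 in control and 0.78 in KO_117, 3.39 in KO_214 and 2.12 in KO_218. Markers of T, B and natural killer cells stayed between 0.06 and 0.14 on this scale, with Cd3g at 0 in every library. The 17 neural stem cell and astroglial markers had 4.83 to 5.78 in control and 5.60, 5.09 and 5.15 in Med23 CKO. This mean covers single markers that went opposite ways in KO_214. Their KO_214 ratios ran from 0.133 to 5.90, with a median of 0.631, and 4 of the 17 were highest in KO_214. Gfap had 321 FPKM there against 17.8 to 138 FPKM in control, and Fabp7 203 FPKM against 463 to 1557 FPKM. The 12 markers of the oligodendrocyte lineage had 6.46, 6.78, 6.15 and 5.39 in control against 4.24, 6.55 and 6.20 in Med23 CKO, and WT_220 and KO_117 were the 2 lowest libraries for 8 of them. The 14 neuronal markers had 2.49 to 3.31 in control and 2.52, 2.61 and 2.80 in Med23 CKO. The part of any of these cell types in the values of the interferon-stimulated genes was not tested.

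**Figure D4:**
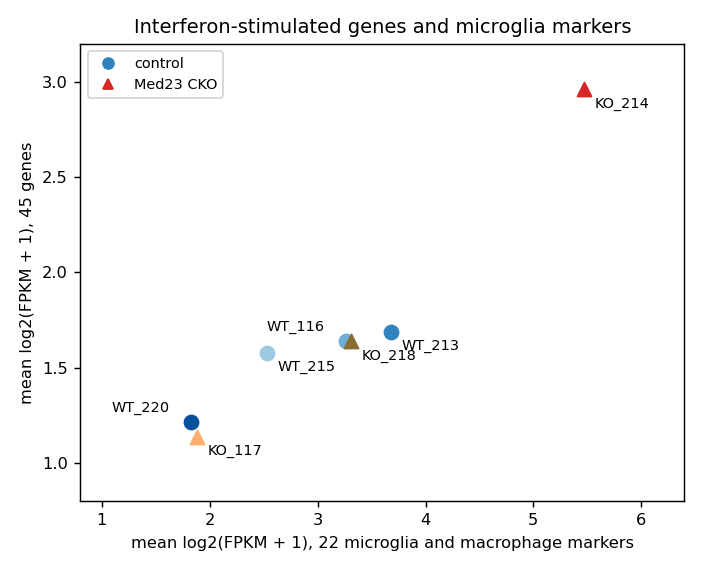
Mean log2(FPKM + 1) of the 45 interferon-stimulated genes (vertical axis) against that of 22 microglia and macrophage markers (horizontal axis), 1 point per library, circles control and triangles Med23 CKO. WT_220 and KO_117 lie at the low end of both axes and KO_214 at the high end of both, at 2.96 and 5.47.

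The interferon pathway outside the 45 genes was examined through lists of its parts. Of 21 interferon genes, 16 were at 0 in every library, and the highest value of any was 0.242 FPKM, for Ifnz in KO_117, so that none passed the filter on low values. Of the receptors and kinases, 8 were tested and 0 passed an unadjusted p under 0.05, with 7 above and 1 below 0. For this and the following lists, the shares over all genes tested were 0.502% higher, 0.996% lower and 43.8% above 0. The largest log2 difference was that of Il10rb, a subunit of the receptors for interferon lambda and interleukin-10, with 5.50, 6.04, 7.84 and 3.82 FPKM in control against 3.85, 24.3 and 6.25 FPKM in Med23 CKO. Of the STAT, IRF and feedback regulators outside the 45 genes, 13 were tested and 0 passed, with 7 above 0 and 6 below. The largest difference was that of Irf8, a factor of the myeloid lineage, with 1.66, 2.19, 2.99 and 1.46 FPKM in control against 1.65, 11.97 and 1.93 FPKM in Med23 CKO. Both repeated the pattern in which KO_214 alone was high.

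In the sensing pathway outside the 45 genes, 15 were tested and 0 passed an unadjusted p under 0.05 by limma, with 10 above 0 and 5 below. The largest difference was that of Tmem173 (STING), the adaptor of cytosolic DNA sensing, with 7.02, 3.31, 5.89 and 6.97 FPKM in control against 27.2, 7.44 and 9.04 FPKM in Med23 CKO. Here KO_117, the library with the lowest interferon-stimulated genes, was highest and all 3 Med23 CKO values lay above control. The log2 difference was 1.02 (SE 0.45), with an exact permutation p of 0.0286, the smallest this design allows, and an adjusted p of 0.9999 in limma. Of 56 further interferon-stimulated genes tested, 47 had a difference above 0 and 9 below, where the share above 0 over all genes tested was 43.8%. Several of the 56 passed the filter on low values only through KO_214, such as Ifi47 and Pyhin1 with 2.00 and 1.96 FPKM there. The count of 47 is therefore partly set by the filter. Of the 56, 0 passed an adjusted p under 0.05. At an unadjusted p under 0.05 there were 2 higher genes (against 0.502% of all genes tested) and 0 lower ones (against 0.996%). These were Ifitm2, a relative of Ifitm3, with 57.8, 48.6, 82.4 and 52.7 FPKM in control against 104, 180 and 67.7 FPKM in Med23 CKO, and Nmi, a partner of STAT proteins, with 7.09, 7.41, 5.74 and 5.07 FPKM in control against 11.96, 7.37 and 14.3 FPKM in Med23 CKO. Their groups overlapped at 1 library each, with log2 differences of 0.86 (SE 0.34) and 0.70 (SE 0.26) and exact permutation p-values of 0.0857 and 0.0571. Shisa5, which encodes a protein of the endoplasmic reticulum and was named after its values were seen, had 41.5, 37.2, 36.6 and 35.1 FPKM in control against 44.5, 97.0 and 43.6 FPKM in Med23 CKO. Its 3 Med23 CKO values all lay above control, with a log2 difference of 0.60 (SE 0.29), an exact permutation p of 0.0286 and an adjusted p of 0.9999 in limma. Ms4a6d, a membrane protein gene, had the largest difference in this list at 1.04 (SE 1.08), with 5.81, 7.41, 13.2 and 1.32 FPKM in control against 1.85, 72.5 and 10.97 FPKM in Med23 CKO.

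The size of the KO_214 value was set beside the promoter matches shown above. The 20 genes with an ISRE match had a median ratio of KO_214 to the other libraries of 5.44, from 1.50 to 25.2. The 15 genes without a match had a median ratio of 4.89, from 0.841 to 10.7, so the ranges overlapped. Of the 5 genes with a ratio under 2, named after their values were seen, Ifit2, Irf1 and Cmpk2 had no ISRE match in this window, while Gbp7 and Stat2 had one. Neighbouring genes could differ: on chromosome 12 the antiviral enzyme gene Rsad2 had a ratio of 5.32 and the adjoining kinase gene Cmpk2 one of 1.54.

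**Figure D5:**
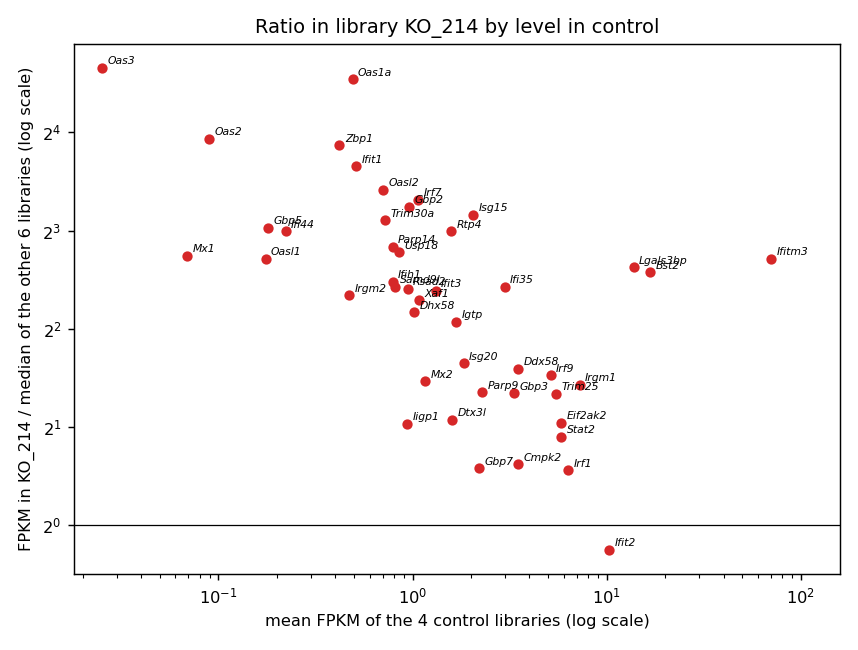
Ratio of the KO_214 value to the median of the other 6 libraries (vertical, log scale) against the mean FPKM of the 4 control libraries (horizontal, log scale), 1 labelled point per gene, with a line at a ratio of 1. The ratio is at least 2 for 40 of the 45 genes, and Ifit2, at 0.841, is the only gene below the line.

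Some of these values rest on reads that related genes can share. Over stretches of 50 bases, 57.6% of the longest Oas1a transcript is also found in Oas1g and 51.2% of the longest Ifit3 transcript in Ifit3b, and 7 of the 45 genes share at least 10% with other genes, whereas 15 share none. Parp9 shares 9.09% with Dtx3l, which shares 7.43% with Parp9, and Dhx58 shares 4.06% with the antisense gene Dhx58os, and whether strand was used in the counting is not given in the sources used here. The values of these genes are therefore uncertain in their split between copies.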

How the data were processed

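The libraries were prepared from primary neurospheres of single mice, with 4 control and 3 Med23 CKO mice assigned by their labels. The authors trimmed adapters, mapped reads to mm10 with Tophat (default settings) and calculated FPKM per gene with Cuffdiff, and these FPKM values were deposited for each library. The deposited comparison columns (group means, log2 fold change, test score, p-value, q-value and a significance mark) were not used.

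Values were analysed as log2(FPKM + 1), which understates fold changes of low genes, for the 14151 genes whose FPKM averaged at least 0.5 over the libraries. Of the 45 interferon-stimulated genes 39 passed this filter, and 3 of the 39 (Ifit1, Irgm2 and Zbp1) would not have passed without KO_214. Groups were compared with limma 3.58.1 in R 4.3.3 (lmFit and eBayes with trend, two-sided, Benjamini-Hochberg adjustment over the genes tested), and single genes by exact permutation over 35 splits, two-sided. SE is the standard error of the log2 difference. The fit was tested on simulated data. Promoter windows came from RefSeq (GRCm38.p6) and transcripts from GENCODE M21. Tables were made with Python 3.11.15, numpy 2.4.6 and pandas 2.3.3, and figures with matplotlib 3.10.9.

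The genes and lists were chosen with earlier results of these data known. Values per library are given for genes with an unadjusted p under 0.05, genes whose groups do not overlap, the 10 genes with the highest mean FPKM, the 2 tested genes per role with the largest absolute log2 difference and, outside the 45, Med23 and, per pathway list, genes with an unadjusted p under 0.05 and the gene with the largest absolute difference. Alternatives were a pseudocount of 0.1, no filter, a filter at an average FPKM of 1, quantile normalization, median centring, limma without trend, array weights, a covariate for the leading digit of the mouse number, the exact test per gene, and each library left out.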

Additional observations from a re-analysis of the deposited data

Results flagged for a closer look

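In the 4 control libraries, 2 of 66 values examined on log2(FPKM + 1) had 1 library far from the others, by a gap divided by the range above the 95% critical value of Dixon's test (which chance passes for about 1 in 20 groups). Bst2 had a value of 0.903 and Samd9l one of 0.881. In both genes the outlying library was WT_220, the lowest, with 9.60 FPKM for Bst2 against 18.5 to 19.8 FPKM in the other control mice and 0.172 FPKM for Samd9l against 0.973 to 1.12 FPKM.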

How the results depend on the processing

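No gene of the 39 passed an adjusted p under 0.05 under any alternative run. At an unadjusted p under 0.05, 1 gene (Parp9) was higher with quantile normalization, against 0.721% of all genes tested. The array weights were 3.01 for KO_218, 0.44 for KO_214 and 0.30 for KO_117. With them 1 gene was higher (Eif2ak2, against 1.36% of all genes tested) and 1 lower (Gbp7, against 6.27%). The median log2 difference of the 39 was then 0.20 in place of 0.48. Array weights also turned the log2 differences of Trim25 to -0.20, Irf9 to -0.042 and Stat2 to -0.064. With each library left out in turn, between 0 and 12 genes were higher and between 0 and 1 lower. The 12 were found without KO_117 (against 2.5% of all genes tested) and the 1 without KO_214 (against 1.45%). The median ran from -0.14 (without KO_214) to 0.84 (without KO_117), where the median over all genes tested was -0.06 and -0.04. Leaving out KO_214 turned the log2 difference from above to below 0 for 30 of the 45 genes. For the 15 of these among the genes with values given per library, the differences over all left-out libraries ran from -0.20 to 0.94 for Ifit1, -0.29 to 1.10 for Ifit3, -0.20 to 1.18 for Oasl2, -0.087 to 1.51 for Ifitm3, -0.25 to 1.61 for Lgals3bp, -0.45 to 1.38 for Isg15, -0.14 to 0.65 for Trim25, -0.055 to 1.30 for Trim30a, -0.31 to 1.11 for Irf7, -0.24 to 0.57 for Irf9, -0.16 to 0.27 for Stat2, -0.26 to 1.14 for Gbp2, -0.028 to 0.82 for Irgm1, -0.011 to 0.84 for Irgm2 and -0.028 to 1.23 for Parp14. The causes of these shifts were not tested beyond the samples and weights that define the alternatives. No paired analysis was possible because the groups share no replicate pairing in the labels. Depth is unknown, so no interval that needs counts is given.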
